A study of Homo sapiens with 11 samples.

Results

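The DLX homeobox genes, DLX1 to DLX6, were examined in 11 established cell lines of T-cell acute lymphoblastic leukemia (T-ALL), a malignancy of arrested T-cell progenitors. Every probe set of the array whose only gene symbol was one of the DLX genes was taken, which gave 11 probe sets of 6 genes, out of 54613 probe sets and 19775 genes on the array. The genes were chosen by name and not by their values. DLX1, DLX2 and DLX4 had 2 probe sets each, DLX6 had 3, and DLX3 and DLX5 had 1 each. Expression was measured with 1 HG U133 Plus 2.0 array per line, and all values are log2 values after RMA, a background correction, quantile normalization and summary of the probes of each probe set. The NKL-positive group held 6 lines (JURKAT, PEER, LOUCY, HPB-ALL, CCRF-CEM and ALL-SIL) and the NKL-negative group 5 lines (SUP-T1, MOLT-16, MOLT-14, MOLT-4 and CML-T1), all without treatment in the labels. Each line has a single array, so that the spread within a group mixes differences between leukemias with those between cultures and arrays. A value of 1 line has no error.

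NKL status in the labels stands for activity of homeobox genes of the NKL subclass, to which the DLX genes themselves belong, so that the groups are not independent of the subclass. Most T-lineage markers fitted the labelled cell type, since 9 of 10 marker genes, by the probe set of highest mean, lay above the median of the array in all lines and CD3D, a chain of the T-cell receptor complex, reached at least 12.64 in every line. The remaining gene, CD2, lay below the median in LOUCY (4.43), PEER (4.16), CML-T1 (4.13) and SUP-T1 (4.21). All 4 myeloid marker genes and all 3 measured erythroid marker genes stayed below the upper quartile of every array, among them LYZ 213975_s_at, which stood out in LOUCY at 5.48 and in CML-T1 at 5.21. Of the 4 neural markers, TUBB3 lay above the median of the array in all lines, at 7.77 to 11.12 with 202154_x_at. SNAP25 202508_s_at stood out in JURKAT at 5.89, while the other SNAP25 probe sets stood out in no line. Of the 4 fibroblast or mesenchymal markers, COL1A1 217430_x_at lay above the median in all lines, at 6.49 to 7.14. COL1A2 229218_at stood out in MOLT-4 at 6.06. The B-lineage genes CD79A and MS4A1 stood out in CML-T1, at 10.12 and 10.01 for the 2 probe sets of CD79A, and CD79A 1555779_a_at also stood out in LOUCY at 9.25. PAX5, the remaining measured B-lineage gene, stood out in no line and read 3.73 with 206802_at and 3.45 with 221969_at in CML-T1. The poly-A control probe sets, which read bacterial transcripts added to the RNA before labelling, were at background in 3 lines, with means of 2.99 in MOLT-16, 3.12 in CML-T1 and 3.06 in HPB-ALL, against 5.65 to 8.76 in the other 8 lines. Because these 3 lines differed from the others at many probe sets, and included lines with high DLX2, each DLX result is also given by poly-A controls. Both facts were known from earlier results, so that the p-values of DLX2 in this comparison are a description.

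DLX proteins are homeodomain transcription factors related to Distal-less of the fly. In vertebrates the genes lie in convergent pairs that share enhancers between them, DLX1 with DLX2 on chromosome 2, DLX3 with DLX4 on chromosome 17, and DLX5 with DLX6 on chromosome 7. They are known from the development of forebrain interneurons, the jaw, teeth, limbs, bone and placenta, and their loci are bound by polycomb repressors in many cells that do not use them. In the mouse forebrain, DLX1 and DLX2 activate the DLX5/DLX6 locus, from which the long antisense RNA DLX6-AS1 (EVF2) is also transcribed across DLX6.

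The sequences before the RefSeq starts of DLX2, DLX1, DLX6-AS1 and DLX6 are shown because HPB-ALL was the highest line for 1 gene of either locus, 250 bases each in build GRCh38.p14, 5′ to 3′ on the strand of the gene. Capitals mark matches to TAATTA, a core of homeodomain binding that reads the same on both strands, and to CCAAT or its reverse ATTGG, a box common in promoters. These motifs do not overlap each other.
DLX2, chr2:172102901-172103150, minus strand: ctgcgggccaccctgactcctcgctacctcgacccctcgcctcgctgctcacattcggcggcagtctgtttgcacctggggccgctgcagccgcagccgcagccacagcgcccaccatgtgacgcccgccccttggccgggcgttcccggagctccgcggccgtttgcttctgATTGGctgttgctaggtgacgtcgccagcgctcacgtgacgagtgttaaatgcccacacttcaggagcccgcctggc
DLX1, chr2:172085257-172085506, plus strand: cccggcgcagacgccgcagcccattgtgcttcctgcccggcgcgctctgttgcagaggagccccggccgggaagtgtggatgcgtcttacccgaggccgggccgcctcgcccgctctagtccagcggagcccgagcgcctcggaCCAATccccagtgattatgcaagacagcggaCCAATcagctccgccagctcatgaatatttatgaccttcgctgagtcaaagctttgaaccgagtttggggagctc
DLX6-AS1, chr7:97014066-97014315, minus strand: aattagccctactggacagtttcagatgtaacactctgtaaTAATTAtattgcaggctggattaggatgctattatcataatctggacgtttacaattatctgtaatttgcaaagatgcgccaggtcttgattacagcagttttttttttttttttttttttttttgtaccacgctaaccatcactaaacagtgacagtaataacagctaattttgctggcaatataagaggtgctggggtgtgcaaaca
DLX6, chr7:97005303-97005552, plus strand: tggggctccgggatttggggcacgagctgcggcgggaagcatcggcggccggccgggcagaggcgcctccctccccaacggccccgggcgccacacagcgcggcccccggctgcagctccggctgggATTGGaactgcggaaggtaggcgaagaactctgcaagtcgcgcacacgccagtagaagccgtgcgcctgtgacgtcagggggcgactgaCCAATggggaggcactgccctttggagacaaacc

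The DLX1, DLX2 and DLX6 windows were rich in CG, with 23, 25 and 25 CG dinucleotides and a GC content of 63.6%, 68.0% and 70.0%, whereas the DLX6-AS1 window held 3 CG dinucleotides at 35.2% GC. Over all 35116 RefSeq windows of this length the median was 11 CG dinucleotides and 58.0% GC. CCAAT was found on either strand 2 times before DLX1, 1 time before DLX2, 2 times before DLX6 and 0 times before DLX6-AS1, and in 32.0% of all windows. TAATTA was found 1 time before DLX6-AS1, with its first base at position -209 from the start, 0 times in the other windows shown, and in 4.35% of all windows. Matches are a description of the letters, and windows of DLX3, DLX4 and DLX5 are not shown.

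Most DLX probe sets were low. Of the 121 values of 11 probe sets in 11 lines, 46 lay below the lower quartile of their array and 20 above its median. Against this, a probe set was counted as standing out in a line where its value passed the median over the remaining 10 lines by at least 2 log2 units and also lay in the upper part (above the median) of its array, a description without a test. This held for 5 pairs of probe set and line, by 3 probe sets of 3 genes, beside 1.59% of all such pairs on the arrays. DLX2 stood out in SUP-T1, CML-T1 and HPB-ALL, DLX4 in LOUCY and DLX1 in JURKAT. Over all probe sets 10.8% stood out in at least 1 line, and over all genes 16.4% did so by any probe set, so that 3 of 11 probe sets and 3 of 6 genes are to be read beside these shares. DLX3, DLX5 and DLX6 stood out in no line. In RNA of a whole culture, fewer cells with a transcript and less of it per cell cannot be told apart.

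**Figure D1:**
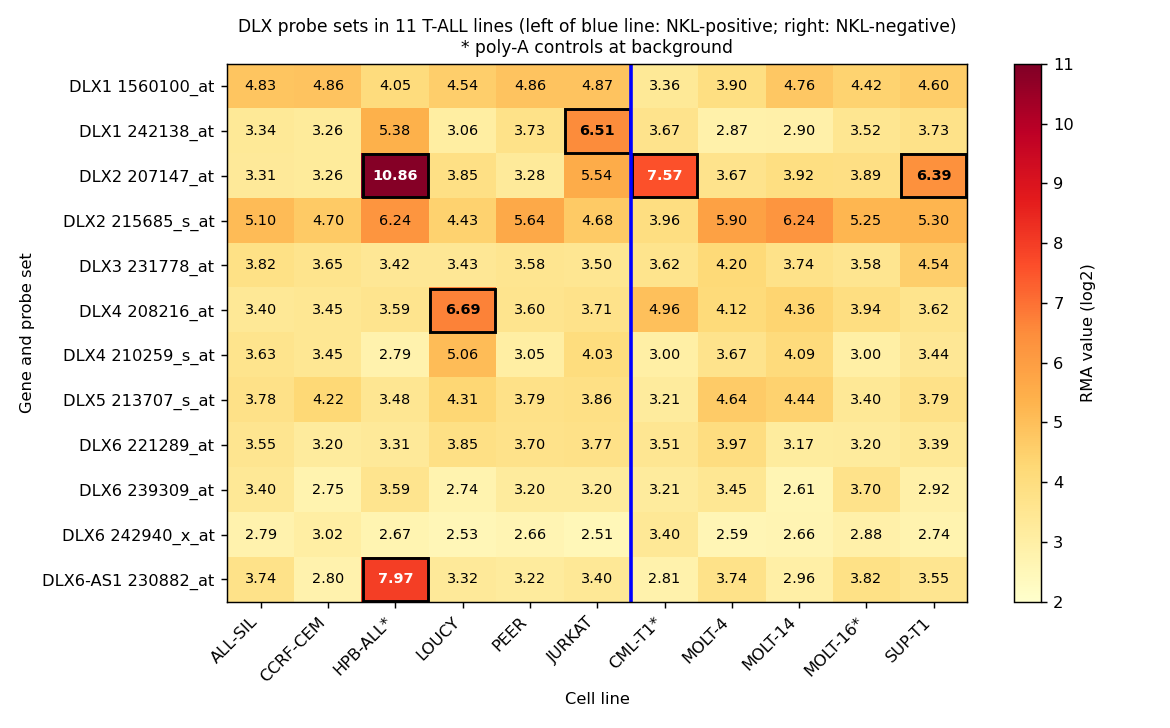
RMA values on the log2 scale (colour and number) of the 11 DLX probe sets and of the DLX6-AS1 probe set (rows) in 11 T-ALL lines (columns), with NKL-positive lines left and NKL-negative lines right of the blue line and asterisks at lines whose poly-A controls were at background. Frames mark values that stood out, the highest of them DLX2 207147_at at 10.86 in HPB-ALL.

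DLX2, a regulator of interneuron and craniofacial development, had the widest range among the DLX probe sets. With probe set 207147_at it was measured at 10.86 in HPB-ALL, 5.54 in JURKAT, 3.85 in LOUCY, 3.31 in ALL-SIL, 3.28 in PEER and 3.26 in CCRF-CEM among NKL-positive lines. Among NKL-negative lines it was 7.57 in CML-T1, 6.39 in SUP-T1, 3.92 in MOLT-14, 3.89 in MOLT-16 and 3.67 in MOLT-4. Thus 1 NKL-positive and 2 NKL-negative lines were high, JURKAT lay between, and the other 7 lines were within 3.26 and 3.92. The range of 7.60 was at percentile 99.6 of the ranges of all probe sets.

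In HPB-ALL this probe set had a gap of 6.99 to the median over the remaining lines and lay at percentile 97.8 of the array, and only 8 of all probe sets, itself included, had a gap at least as large in that line. The gap was 3.70 in CML-T1 (percentile 78.9 of the array, 331 probe sets with at least this gap) and 2.52 in SUP-T1 (percentile 70.4, 363 probe sets). Standing out in 3 or more lines was seen for 1.74% of all probe sets. JURKAT was just outside the limit with a gap of 1.67. Of all probe sets, 1.17% stood out in SUP-T1, 3.14% in CML-T1 and 2.29% in HPB-ALL.

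The other DLX2 probe set, 215685_s_at, gave another order of lines. The suffix s marks probes that match several transcripts. It read 6.24 in HPB-ALL, 5.64 in PEER, 5.10 in ALL-SIL, 4.70 in CCRF-CEM, 4.68 in JURKAT and 4.43 in LOUCY, against 6.24 in MOLT-14, 5.90 in MOLT-4, 5.30 in SUP-T1, 5.25 in MOLT-16 and 3.96 in CML-T1. Both probe sets placed HPB-ALL at the top, here together with MOLT-14, but CML-T1, next to the top with the first probe set, was the lowest line with this one. Over the 11 lines Pearson's r between both probe sets was 0.10 and Spearman's rho 0.06, and r was -0.13 over 9 lines without HPB-ALL and CML-T1. By the mean over both probe sets DLX2 stood out in HPB-ALL alone, at 8.55. The 215685_s_at probe set stood out in no line, the largest gap being 1.07.

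DLX1, the neighbour of DLX2 and its partner in interneuron development, was high in JURKAT by 1 probe set. Probe set 242138_at read 6.51 in JURKAT, 5.38 in HPB-ALL, 3.73 in PEER, 3.34 in ALL-SIL, 3.26 in CCRF-CEM and 3.06 in LOUCY, against 3.73 in SUP-T1, 3.67 in CML-T1, 3.52 in MOLT-16, 2.90 in MOLT-14 and 2.87 in MOLT-4. JURKAT and HPB-ALL, both NKL-positive, were the only lines above 3.73. The gap of JURKAT was 3.08, at percentile 70.6 of its array, and 248 probe sets had at least this gap there, while 1.37% of all probe sets stood out in JURKAT. HPB-ALL lay just outside the limit with a gap of 1.95.

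The second DLX1 probe set, 1560100_at, varied less and set neither line apart. It read 4.87 in JURKAT, 4.86 in CCRF-CEM and PEER, 4.83 in ALL-SIL, 4.54 in LOUCY and 4.05 in HPB-ALL, against 4.76 in MOLT-14, 4.6 in SUP-T1, 4.42 in MOLT-16, 3.90 in MOLT-4 and 3.36 in CML-T1. JURKAT exceeded PEER by 0.01, and HPB-ALL was above CML-T1 and MOLT-4 only. The correlation between both DLX1 probe sets was 0.07 by Pearson and 0.24 by Spearman (n = 11 lines).

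As a pair, DLX1 and DLX2 stood out in no line in common, and how far they went together depended on the probe sets taken. HPB-ALL and JURKAT were the only lines above the median of their array with DLX1 242138_at and were among the 4 such lines with DLX2 207147_at, with r = 0.57 and rho = 0.49 (n = 11 lines), and r = 0.49 over 9 lines without HPB-ALL and JURKAT. In CML-T1 and SUP-T1, where DLX2 stood out, DLX1 242138_at was at 3.67 and 3.73. DLX1 1560100_at ran the other way, with r = -0.55 and rho = -0.48 against DLX2 207147_at. Against DLX2 215685_s_at, r was -0.04 for DLX1 242138_at and 0.15 for DLX1 1560100_at. These coefficients describe 11 lines on 11 arrays, and all pairs of probe sets share those arrays.

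**Figure D2:**
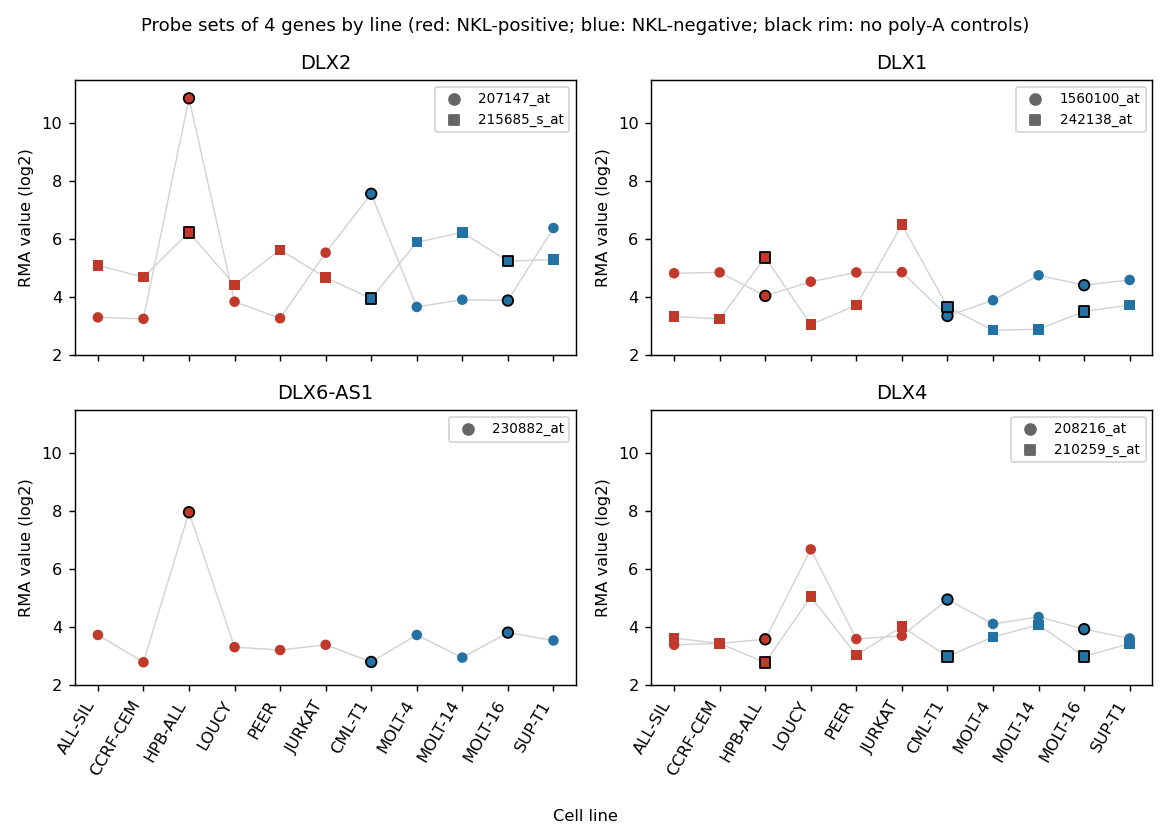
RMA values on the log2 scale by line for the probe sets of DLX2, DLX1, DLX6-AS1 and DLX4, with red points for NKL-positive and blue points for NKL-negative lines and a black rim where poly-A controls were at background. Grey lines join the values of 1 probe set and stand for no order of lines. Both probe sets of DLX2 are highest in HPB-ALL (215685_s_at equally in MOLT-14), both of DLX1 in JURKAT (1560100_at by only 0.01 over PEER) and both of DLX4 in LOUCY. The order of the other lines differs between the probe sets of each of these genes.

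DLX4, known from placenta and, as the isoform BP1, from acute leukemia, was high in LOUCY. Probe set 208216_at read 6.69 in LOUCY, 3.71 in JURKAT, 3.60 in PEER, 3.59 in HPB-ALL, 3.45 in CCRF-CEM and 3.40 in ALL-SIL, against 4.96 in CML-T1, 4.36 in MOLT-14, 4.12 in MOLT-4, 3.94 in MOLT-16 and 3.62 in SUP-T1. LOUCY exceeded the next line, CML-T1, by 1.73 and had a gap of 3.03 at percentile 72.3 of its array, which 393 probe sets reached there, while 1.9% of all probe sets stood out in LOUCY.

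The second DLX4 probe set, 210259_s_at, was also highest in LOUCY, at 5.06, with 4.03 in JURKAT, 3.63 in ALL-SIL, 3.45 in CCRF-CEM, 3.05 in PEER and 2.79 in HPB-ALL. NKL-negative lines were at 4.09 in MOLT-14, 3.67 in MOLT-4, 3.44 in SUP-T1 and 3.0 in both CML-T1 and MOLT-16. Its gap in LOUCY was 1.61, under the limit of 2. The probe sets disagreed on CML-T1, which came next to LOUCY with 208216_at, whereas only HPB-ALL was lower than CML-T1 with 210259_s_at. Their correlation was 0.66 by Pearson and 0.35 by Spearman (n = 11 lines), and r was 0.40 over 9 lines without LOUCY and CML-T1. By the mean over both probe sets DLX4 stood out in LOUCY, at 5.88.

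DLX3, a gene of skin, hair, tooth and bone, was low in LOUCY, where its neighbour DLX4 stood out. Its probe set 231778_at lay between 3.42 and 3.82 in NKL-positive lines, against 3.58 to 4.54 in NKL-negative lines, and below the median of the array in every line. SUP-T1 at 4.54 and MOLT-4 at 4.20 were the highest, and LOUCY was at 3.43. Against DLX4, r was -0.27 for 208216_at and -0.05 for 210259_s_at (n = 11 lines).

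DLX5, which acts in bone formation, and DLX6 were below the median of the array in every line. DLX5 213707_s_at lay between 3.48 and 4.31 in NKL-positive lines, against 3.21 to 4.64 in NKL-negative lines, with MOLT-4 at 4.64 and MOLT-14 at 4.44 the highest. DLX6 lay between 3.20 and 3.85 in NKL-positive lines, against 3.17 to 3.97 in NKL-negative lines, with 221289_at. With 239309_at it lay between 2.74 and 3.59 in NKL-positive lines, against 2.61 to 3.70 in NKL-negative lines. With 242940_x_at, whose suffix x marks probes that may bind other transcripts, it lay between 2.51 and 3.02 in NKL-positive lines, against 2.59 to 3.40 in NKL-negative lines, below the lower quartile of the array in all 11 lines. The 3 DLX6 probe sets had different highest lines, MOLT-4, MOLT-16 and CML-T1, and their correlations with each other ran between -0.42 and 0.10 and with DLX5 between -0.54 and 0.32 (n = 11 lines).

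DLX6-AS1, the antisense RNA of the DLX5/DLX6 locus, was high in HPB-ALL only. Its probe set 230882_at, matched by its own symbol and not counted among the DLX genes, read 7.97 in HPB-ALL, 3.74 in ALL-SIL, 3.40 in JURKAT, 3.32 in LOUCY, 3.22 in PEER and 2.80 in CCRF-CEM, against 3.82 in MOLT-16, 3.74 in MOLT-4, 3.55 in SUP-T1, 2.96 in MOLT-14 and 2.81 in CML-T1. The gap of 4.61 in HPB-ALL, at percentile 82.5 of the array, was reached by 104 probe sets there. DLX6 itself was at 3.31, 3.59 and 2.67 in HPB-ALL with its 3 probe sets, and DLX5 at 3.48. HPB-ALL was thus the highest line for DLX2 207147_at and for DLX6-AS1, whereas CML-T1 and SUP-T1, the other lines with high DLX2, had DLX6-AS1 at 2.81 and 3.55. The correlation of both was 0.74 by Pearson and 0.28 by Spearman (n = 11 lines), and r was 0.19 over 9 lines without HPB-ALL and CML-T1.

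The study's design compares NKL-positive with NKL-negative lines, and the comparison took 5 lines of each group without JURKAT. Of the DLX probe sets 0 of 11 were called by limma at an adjusted p under 0.05, beside 0.00916% of all probe sets (5 of 54613), and 0 of 11 had an unadjusted p under 0.05, beside 4.9% of all. The groups overlapped at every DLX probe set, while they did not at 0.879% of all. DLX2 207147_at averaged 4.91 ± 3.33 in NKL-positive lines and 5.09 ± 1.78 in NKL-negative lines (SD, n = 5 each), a difference of -0.18 (SE 1.48, 95% interval -3.44 to 3.09, limma adjusted p = 0.998). The sign of this difference rested on single lines, since it ran between -1.66 without HPB-ALL and 0.44 without CML-T1 when 1 line was left out.

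Among the other DLX probe sets the largest differences were found for DLX1, at 0.42 with both 1560100_at (4.63 ± 0.35 in NKL-positive lines, 4.21 ± 0.57 in NKL-negative lines, SE 0.30) and 242138_at (3.75 ± 0.94 in NKL-positive lines, 3.34 ± 0.42 in NKL-negative lines, SE 0.42). The limma adjusted p was 0.981 for both. The size of these differences moved with the lines taken, being 0.01 for 242138_at without HPB-ALL and 0.88 with all 11 lines, and 0.21 for 1560100_at without CML-T1. DLX3 averaged 3.58 ± 0.17 in NKL-positive lines and 3.94 ± 0.42 in NKL-negative lines, a difference of -0.36 (SE 0.22, limma adjusted p = 0.981). DLX4 208216_at averaged 4.15 ± 1.42 in NKL-positive lines, with LOUCY among them, and 4.20 ± 0.50 in NKL-negative lines, a difference of -0.05 (95% interval -1.39 to 1.28, limma adjusted p = 0.998). The remaining 6 probe sets differed by -0.12 to 0.16. In all, 5 DLX probe sets were higher and 6 lower in NKL-positive lines, with a median difference of -0.04, beside -0.01 over all probe sets. DLX6-AS1 averaged 4.21 ± 2.13 in NKL-positive lines and 3.38 ± 0.46 in NKL-negative lines, a difference of 0.83 (SE 0.86, limma adjusted p = 0.981).

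**Figure D3:**
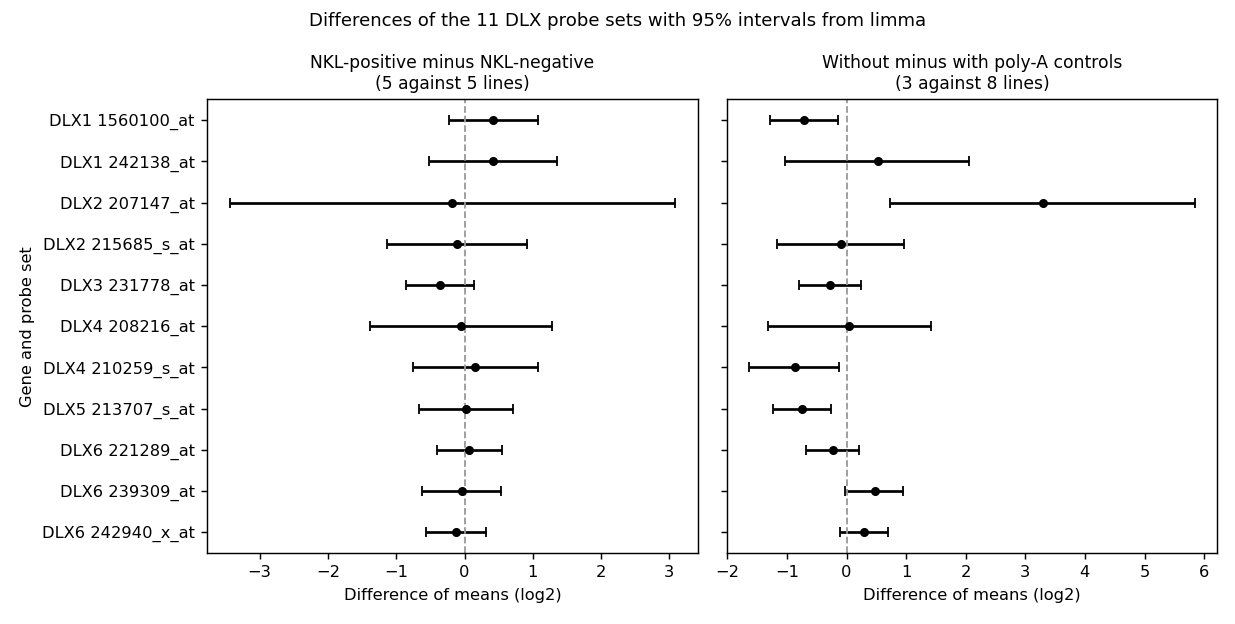
Differences of means on the log2 scale (points) with 95% intervals from limma (bars) for the 11 DLX probe sets, NKL-positive minus NKL-negative lines on the left (n = 5 each) and lines without minus lines with poly-A controls on the right (n = 3 and 8). On the left every interval includes 0, and on the right DLX2 207147_at has the largest difference, 3.29.

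Of the lines with high DLX2, HPB-ALL and CML-T1 were among the 3 lines whose poly-A controls were at background. DLX2 207147_at averaged 7.44 ± 3.49 in these lines (3.89 in MOLT-16, 7.57 in CML-T1 and 10.86 in HPB-ALL) and 4.15 ± 1.17 in the 8 lines with poly-A controls (3.26 to 6.39), a difference of 3.29 (SE 1.17, 95% interval 0.73 to 5.85, limma adjusted p = 0.0988). Without MOLT-16, the low line of the 3, the difference was 5.06 and passed the threshold (limma adjusted p = 0.0182). Without HPB-ALL it was 1.58 and did not pass. In this comparison 0 of 11 DLX probe sets were called, beside 10.4% of all probe sets, and 4 of 11 had an unadjusted p under 0.05, beside 26.3% of all. The DLX probe sets had a median difference of -0.10, beside 0.04 over all. The high value in SUP-T1 arose in a line with poly-A controls. Among the 8 such lines DLX2 stood out there with a gap of 2.72, as did DLX1 in JURKAT (3.25) and DLX4 in LOUCY (3.07). This subset was chosen after seeing the data. It leaves out other high values, such as those of HPB-ALL and CML-T1 for DLX2, which lowers the median that the gap is taken from. The gaps among the 8 lines are therefore no separate result. Whether the missing poly-A controls had a part in the values of HPB-ALL and CML-T1 was not tested.

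Of the low DLX probe sets 2 did not overlap between these lines, both lower where poly-A controls were at background, as were 7.81% of all probe sets. DLX5 was at 3.40 in MOLT-16, 3.21 in CML-T1 and 3.48 in HPB-ALL, against 3.78 to 4.64 in the other lines, a difference of -0.74 (SE 0.22, limma adjusted p = 0.0556). DLX4 210259_s_at was at 2.79 in HPB-ALL and 3.0 in both CML-T1 and MOLT-16, against 3.05 to 5.06, a difference of -0.87 (SE 0.35, limma adjusted p = 0.133). DLX1 1560100_at differed by -0.71 (SE 0.26, adjusted p = 0.109), and without MOLT-4 by -0.82 with an adjusted p of 0.0422, which passed the threshold. The other 7 DLX probe sets had adjusted p-values between 0.207 and 0.973. DLX6-AS1 averaged 4.87 ± 2.73 in the lines without and 3.34 ± 0.34 in the lines with poly-A controls (limma adjusted p = 0.253).

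Among the genes next to each pair in RefSeq, ITGA6 was the only one to stand out in a line where a gene of its DLX pair stood out. Beside DLX1 and DLX2, METAP1D, a mitochondrial aminopeptidase, was highest in HPB-ALL with 2 of its 4 probe sets, at 5.93 and 7.35, but stood out nowhere. HAT1, a histone acetyltransferase, lay between 9.86 and 10.96 in all lines. On the other side ITGA6, an integrin chain, stood out in CML-T1 with both probe sets, at 10.20 and 9.94, where DLX2 also stood out, and was at 7.08 and 7.24 in HPB-ALL and at 6.79 and 6.53 in SUP-T1. PDK1, a kinase of pyruvate dehydrogenase, stood out in no line.

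Beside DLX3 and DLX4, PDK2 was highest in LOUCY with both probe sets, at 7.56 and 7.38, without standing out, and PDK2 213724_s_at fell by 1.86 in the lines without poly-A controls (limma adjusted p = 0.0164). ITGA3 was at 5.48 in LOUCY and 5.50 in CCRF-CEM. KAT7 and FAM117A on the other side stood out in no line, and FAM117A had a difference of 1.27 between NKL-positive and NKL-negative lines (limma adjusted p = 0.762). Beside DLX5 and DLX6, SEM1 lay between 10.18 and 11.49. SLC25A13, a mitochondrial carrier, stood out in LOUCY at 7.83 with 1 of 3 probe sets, and TAC1, the precursor of substance P, stood out in MOLT-4 at 4.91. SDHAF3, an assembly factor of succinate dehydrogenase, was at 9.33 in HPB-ALL and stood out in no line.

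Of a list of 25 partners and regulators of DLX genes in development, 20 were measured by 50 probe sets, and 0 probe sets were called between NKL-positive and NKL-negative lines, 4 with an unadjusted p under 0.05, beside 4.9% of all, at a median difference of 0.15, beside -0.01 over all. In the 3 lines without poly-A controls 1 probe set rose and 4 fell, beside 3.93% of all that rose and 6.47% that fell. SMAD4 202526_at, the shared SMAD of BMP signalling, rose by 1.37 (SE 0.27, limma adjusted p = 0.0102), but its other 4 probe sets were not called, among them 202527_s_at with a difference of -0.30 (adjusted p = 0.509). BMP7 211260_at fell by 1.40 (adjusted p = 0.00857), BMPR2 209920_at by 1.30 (0.0102), HAND2 by 1.01 (0.0222) and FGF8 by 0.58 (0.0459). The other BMPR2 probe sets were not called and went the other way, with differences of 0.14 to 0.99. The other BMP7 probe sets were lower by 0.28 to 0.89 and not called. BMP4, a ligand that induces DLX genes in jaw and limb, stood out in SUP-T1 at 8.28 and HPB-ALL at 7.80, and was at 6.44 in CML-T1, the lines with high DLX2. Transcripts of SMAD1 and SMAD5, whose proteins pass on the BMP signal, were low in some of these lines. They were named after their values were seen. SMAD1 210993_s_at read 3.79 in SUP-T1, 3.82 in MOLT-16 and 4.13 in CML-T1, against 7.5 to 8.89 in the other lines, HPB-ALL among them at 8.77. SMAD5 225219_at read 3.08 in SUP-T1, against 8.06 to 9.44 in the other lines. The receptor BMPR1B stood out in HPB-ALL (7.0 and 6.04 with 2 probe sets) and in ALL-SIL (6.70 and 6.14). Its probe set 210523_at stood out in no line and read 4.68 in HPB-ALL and 3.74 in ALL-SIL. The BMP antagonist NOG stood out in LOUCY at 7.33, SUP-T1 at 7.08 and CML-T1 at 6.62, and was at 4.73 in HPB-ALL. MSX1, a homeodomain protein that binds DLX proteins in the mouse, stood out with 205932_s_at in LOUCY at 8.04, JURKAT at 7.69 and HPB-ALL at 6.95. It was at 3.21 in CML-T1 and 3.55 in SUP-T1. Its other probe set, 228473_at, stood out in no line and read 4.54 in LOUCY, 4.78 in JURKAT and 4.28 in HPB-ALL. Of the 20 measured genes 5 stood out in some line, beside 16.4% of all genes. BMP4, BMPR1B, NOG and MSX1 were named because they stood out in a line where a DLX gene did. Their sharing of lines with DLX genes is therefore no separate result. The remaining gene, EDN1, stood out only in CCRF-CEM, at 6.96 with 222802_at, where no DLX gene stood out.

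Of 21 target genes of DLX proteins known from other tissues, 18 were measured by 55 probe sets and 9 genes stood out in some line, beside 16.4% of all genes, while 0 probe sets were called between NKL-positive and NKL-negative lines, 4 with an unadjusted p under 0.05, beside 4.9% of all, at a median difference of -0.07, beside -0.01 over all. In the lines without poly-A controls 0 rose and 4 fell, beside 6.47% of all that fell, namely LHX6 224556_s_at by 1.14 (limma adjusted p = 0.00303), NRP2 210841_s_at by 1.48 (0.00656), NOTCH3 203237_s_at by 1.74 (0.0146) and RUNX2 221283_at by 1.18 (0.0336). The other probe sets of these genes were not called. Their differences were -1.06 for LHX6, -1.77 for NOTCH3, -0.56 to 0.28 for NRP2 and -0.75 to 2.12 for RUNX2. GAD1, which makes GABA in interneurons and is activated there by DLX2 in the mouse, was high in 2 of the 3 lines with high DLX2. Its probe set 205278_at stood out in SUP-T1 at 7.15, CML-T1 at 6.73 and MOLT-16 at 6.54, and read 2.92 in HPB-ALL, where DLX2 was highest. The other 2 probe sets of GAD1 stood out in SUP-T1 only, at 7.14 and 7.58. OTX2, a homeobox gene of brain and retina, stood out in HPB-ALL only, at 5.80 and 5.76 with 2 probe sets. RUNX2, a regulator of bone, stood out with 232231_at in MOLT-16 at 10.39, LOUCY at 8.27 and JURKAT at 6.72, while its other 5 probe sets stood out in no line. The remaining targets that stood out in some line were CCND2, IRS2, KRT1, NOTCH1, NOTCH3 and ZEB2. Among them IRS2 209185_s_at read 11.11 in CML-T1, 9.70 in HPB-ALL and 9.39 in SUP-T1. It also read 9.90 in ALL-SIL and 9.05 in MOLT-14, where DLX2 207147_at was low.

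All 11 genes of the polycomb repressive complex PRC2 and its opposing demethylases were measured, by 38 probe sets. None was called between NKL-positive and NKL-negative lines, where 3 of the 38 had an unadjusted p under 0.05, beside 4.9% of all, and the median difference was -0.01, as over all probe sets. Of the 38, 2 rose in the lines without poly-A controls, beside 3.93% of all, and 0 fell. In the lines without poly-A controls EZH1 211310_at, a methyltransferase of the complex, rose by 1.93 (SE 0.20, limma adjusted p = 6.19e-04), and KDM6A 238220_at, a demethylase, by 2.17 (SE 0.47, adjusted p = 0.0148), both standing out in CML-T1 and MOLT-16. The other 4 probe sets of EZH1 were not called, with differences of -0.22 for 203249_at, -0.09 for 32259_at, -0.27 for 239197_s_at and 0.60 for 239198_at. EZH2, the other methyltransferase of the complex, read 2.53 in LOUCY with its 1 probe set, 203358_s_at, against 9.73 to 11.19 in the other lines, as was seen in the values.

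Of the other NKL homeobox genes 30 were measured by 39 probe sets, of which 0 were called between NKL-positive and NKL-negative lines. Among them 2 had an unadjusted p under 0.05, beside 4.9% of all, and the median difference was 0.09, beside -0.01 over all. In the lines without poly-A controls 9 of them fell, beside 6.47% of all probe sets, with a median difference of -0.65 over the list, beside 0.04 over all. The fall ran from 0.72 for LBX1 to 1.93 for EMX1, the others being BARHL1, BARX1, BARX2, HMX1, NKX1-1, NKX2-8 and NKX2-1 210673_x_at. In HPB-ALL, DLX2 stood out together with TLX3 (7.92) and MSX1, in LOUCY DLX4 with HHEX (9.83 and 10.89) and MSX1, and in SUP-T1 DLX2 with EN1 (7.08). In JURKAT, DLX1 stood out with MSX1, HMX2 (6.99), NKX2-1 211024_s_at (7.27) and NKX2-2 (5.99). Of the NKL homeobox genes examined here only DLX2 stood out in CML-T1. Among the 30 genes 9 stood out in some line, beside 16.4% of all genes. TLX1 and NKX2-5 did so only in lines where no DLX gene stood out.

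The genes most like each high DLX probe set were taken by Pearson's r over the 11 lines among 15709 probe sets with a range of at least 2, as a description. For DLX2 207147_at these were DMGDH, an enzyme of choline breakdown (r = 0.961, rho = 0.791), the chloride channel BEST3 (r = 0.956, rho = 0.609) and the lncRNA OSER1-DT (r = 0.924, rho = 0.900), at 6.21, 8.17 and 6.82 in HPB-ALL. Over 9 lines without HPB-ALL and CML-T1 their r was 0.869, 0.728 and 0.758. For DLX1 242138_at they were CCSER2 (r = 0.951), NIPSNAP3B (r = 0.944) and HOMER2, a synaptic scaffold (r = 0.917), with r of 0.563, 0.167 and 0.207 without JURKAT and HPB-ALL. For DLX4 208216_at they were NT5E, the surface enzyme CD73 (r = 0.956), the ligand WNT5B (r = 0.953) and RNF130 (r = 0.948), with r of 0.718, 0.503 and 0.725 without LOUCY and CML-T1. All of them were highest in the line in which the DLX gene was highest, which the choice by r favours, so that it is no separate result.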

How the data were processed

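The data were 1 HG U133 Plus 2.0 array of each of 11 T-ALL cell lines, hybridized with biotinylated cRNA from total RNA. The authors processed the arrays with RMA in the R packages affy and limma, and the deposited values are on the log2 scale with 2 decimals. The methods also name a division by the sample mean, which the deposited values do not show. They were used without further scaling. Versions and a genome build are not given in the sources used here.

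The 62 control probe sets were left out, and 54613 were tested. Symbols came from the platform annotation, in which 41091 probe sets have 1 symbol, 1801 several and 11721 none. The 5 NKL-positive and 5 NKL-negative lines of the study's comparison were fitted with lmFit and eBayes (limma 3.58.1, R 4.3.3), with a Benjamini-Hochberg adjustment over all probe sets and a threshold of 0.05. Lines whose 27 poly-A control probe sets averaged below 5 were compared with the others in the same way over all 11 lines. The fits were tested on simulated data. The number of columns from other samples was 0. Nothing says that lines were measured more than once, so that p-values rest on the spread between lines, which cannot be told apart from that between arrays.

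Named were all DLX probe sets, DLX6-AS1, the 2 nearest measured protein-coding genes on each side of a pair, list members called in a fit, up to 3 list members that stood out with a DLX gene, and the 3 genes most like each high DLX probe set. Genes beyond this rule were named after their values were seen. The genes and lists were chosen with earlier results of these data known. Promoter windows came from RefSeq on GRCh38.p14, in which DLX1, DLX2, DLX6 and DLX6-AS1 matched. Alternatives changed the lines, scaling, filter, floor, moderation and limits.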

Additional observations from a re-analysis of the deposited data

Results flagged for a closer look

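Within the 6 NKL-positive lines, the DLX2 207147_at value of 10.86 in HPB-ALL lay far above the others, which were between 3.26 and 5.54. Its distance to the nearest line was 0.70 of the whole range, above Dixon's critical value of 0.625. DLX4 208216_at was at 6.69 in LOUCY, with the others between 3.40 and 3.71 and a ratio of 0.906. DLX6-AS1 was at 7.97 in HPB-ALL, with the others between 2.80 and 3.74 and a ratio of 0.818. In all, 24 groups of values were examined, and chance alone singles out about 1 in 20 such groups, so that 3 are to be read beside that rate.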

How the results depend on the processing

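No paired analysis was possible because the labels carry no replicate numbers and no line is in both groups. The number of arrays limits the precision. No DLX probe set was called between NKL-positive and NKL-negative lines under any of 9 alternatives or without any of the 10 lines in turn. The count over all probe sets was 0 with all 11 lines (2553 with an unadjusted p under 0.05), 3 with a floor at the 25th percentile, 3 with a term for lines without poly-A controls, 3 with only the lines with poly-A controls, and 3 to 13 when single lines were left out, among them 3 without HPB-ALL, PEER or CML-T1, 13 without LOUCY and 9 without MOLT-14. Between lines without and with poly-A controls it was 2310 among probe sets above the median mean, and 2486 to 5078 when single lines were left out, with 2486 without MOLT-16 and 2929 without CML-T1. Of the DLX probe sets, 0 to 1 were then called, DLX2 207147_at without MOLT-16 and DLX1 1560100_at without MOLT-4. The filter kept only 2 DLX probe sets, so the others have no value under it.

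Between NKL-positive and NKL-negative lines, the differences of both DLX1 probe sets and of DLX3 kept their sign under all alternatives run, while others changed sign, whose cause was not tested. With the poly-A term they were 0.55 for DLX2 207147_at, -0.01 for DLX4 210259_s_at, -0.14 for DLX5 and 0.06 for DLX6 239309_at. With only lines with poly-A controls they were 0.25 for DLX4 208216_at, -0.27 for DLX5, 0.03 for DLX6 239309_at and 0.09 for DLX6 242940_x_at, and DLX2 207147_at was at -1.24. With the floor they were -0.05 for DLX5 and -0.01 for DLX6 221289_at, with array weights -0.03 for DLX5 and 0.01 for DLX6 239309_at, and with quantile normalization 0.01 for DLX4 208216_at. Leaving out single lines gave -1.66 to 0.44 for DLX2 207147_at, -0.45 to 0.12 for DLX2 215685_s_at, -0.69 to 0.14 for DLX4 208216_at, -0.21 to 0.36 for DLX4 210259_s_at, -0.15 to 0.21 for DLX5, and -0.01 to 0.20, -0.18 to 0.09 and -0.19 to 0.02 for DLX6 221289_at, 239309_at and 242940_x_at. Between lines without and with poly-A controls, DLX6 242940_x_at was at -0.04 with the floor, and single lines left out gave -0.08 to 0.92 for DLX1 242138_at, -0.64 to 0.50 for DLX2 215685_s_at and -0.35 to 0.41 for DLX4 208216_at.

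The 5 pairs of DLX probe set and line that stood out became 11 with a limit of 1 log2 unit, 2 above the 75th percentile of the array (DLX2 207147_at in HPB-ALL and CML-T1), 1 with only the probe set of highest mean per gene (DLX4 in LOUCY), 2 with the mean of the probe sets per gene, and 3 among only the 8 lines with poly-A controls, an alternative chosen after seeing the data. Leaving out single lines gave 4 to 6.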

Other observations

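Some neighbours of the DLX pairs were low in single lines, which were seen in the values and not looked for by a rule. SDHAF3, beside DLX5 and DLX6, was at 2.38 in LOUCY, against 6.95 to 9.33 in the other lines. PDK1, beside DLX2, was at 2.66 in ALL-SIL with 226452_at, against 7.94 to 10.70 in the other lines, and its other probe sets were at 3.40 and 3.31 there.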
